A study of Mus musculus with 6 samples.

Results

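A set of 8 candidate genes of diabetes susceptibility loci was followed in the spleen of NOD mice: Il2, Il21, Tnfrsf9, Ptpn22, Ptpn2, Sh2b3, Slc11a1 and Cd101. They were chosen by name, and every probe set annotated to one of them by its current or an older symbol was taken. This gave 15 of the 45037 probe sets tested, for 7 of the 8 genes. Of these, 14 name 1 gene, and the remaining probe set names both Il2 and Ntan1. No probe set was found under Cd101, Igsf2 or Gm734, so that Cd101, an immunoglobulin superfamily protein of myeloid and T cells, was not analysed here. The 7 measured genes are counted below by 1 representative probe set each, the one with the highest mean over the arrays.

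The arrays held RNA from splenocytes of female NOD mice in 3 groups, with 2 arrays each. TSA-treated mice had been given 500 µg/kg trichostatin A, an inhibitor of histone deacetylases, by weekly subcutaneous injection between 18 and 24 weeks of age. Per the study's methods, the mice chosen for injection had no diabetes by 18 weeks of age. Only TSA-treated mice that the methods call cured of diabetes were included, and those that stayed diabetic were left out. Untreated diabetic mice and untreated non-diabetic mice received no drug, and no array of vehicle-injected mice was used. The drug, the injections, the selection of cured mice and, by the ages in the methods, age therefore cannot be told apart. All groups are labelled as 32 to 36 weeks old, while the methods give other ages, younger for diabetic than for cured mice. The RNA of 3 to 5 mice per group per the labels, a slightly larger number per the methods, was combined into 1 pool, and the pool was put on both arrays. Per the methods each sample was labelled in duplicate. The p-values thus describe the spread between labellings and hybridizations of a pool and not between mice.

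The NOD mouse develops autoimmune diabetes spontaneously, and crosses to resistant strains have mapped the risk to many chromosomal intervals, the Idd loci. Several of these intervals hold genes of T cell activation: the cytokines Il2 and Il21 lie side by side in one of them, and others hold the costimulatory receptor Tnfrsf9 and the phosphatase Ptpn22. A further one holds Slc11a1, a metal transporter of phagocytes. Ptpn22, Ptpn2 and Sh2b3 are also known from genetic studies of type 1 diabetes in humans. Il2, Il21 and Tnfrsf9 are switched on mainly after T cells are stimulated, whereas the phosphatases are present in resting lymphocytes as well.

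The values are log2 levels from Robust Multi-array Average (RMA), so a difference of 1 is a doubling, and levels of different probe sets are not compared with each other. The array medians lay between 3.79 and 3.95. Duplicates correlated at 0.966 in TSA-treated, 0.973 in diabetic and 0.993 in untreated non-diabetic mice across all probe sets, and their differences had an SD of 0.589, 0.522 and 0.253 in the same order. Diabetic replicate 2 was closer to TSA-treated replicate 1, at 0.990, than to its own duplicate. The gap between the 3′ and 5′ probe sets of beta-actin, a sign of RNA degradation or short labelling products, was 3.45 and 5.61 in TSA-treated, 2.42 and 3.32 in diabetic, and 2.35 and 2.05 in untreated non-diabetic mice. Markers of splenic cells were present: 11 of 14 T cell, 10 of 10 B cell and 14 of 16 macrophage and monocyte markers lay above the median on every array. Markers of exocrine pancreas also passed limma's test at an adjusted p under 0.05. Of 17 markers, 12 rose in TSA-treated and 16 in diabetic mice against untreated non-diabetic mice, and 5 fell in TSA-treated against diabetic mice. Over all probe sets the shares called were 0.0688%, 0.0888% and 0.0266%. The counts of markers changed when single arrays were left out. The count between TSA-treated and diabetic mice was 0 with the replicate block, with the compared groups alone and with median centring. The methods' t-test called 13, 17 and 17 of the 17 in these comparisons at an unadjusted p under 0.05 (11.6%, 5.92% and 3.02% of all probe sets). After Benjamini-Hochberg it called 0 in each, as it did for every list used here. The local pooled error test with adjustment called 16, 17 and 13, and its share over all probe sets was not computed, here or below. The arrays did not overlap for 17 of 17 in each comparison, against 47.8%, 41% and 27.5% of all probe sets. The median differences of these markers were 3.36, 6.17 and -2.51. Their part in the values of the candidate genes was not tested. In whole splenocytes, fewer cells of a type and less RNA per cell cannot be told apart.

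None of the 7 measured genes passed the test in any comparison. This holds for limma's moderated test at an adjusted p under 0.05, which called 0.0688% of all probe sets between TSA-treated and untreated non-diabetic mice, 0.0888% between diabetic and untreated non-diabetic mice and 0.0266% between TSA-treated and diabetic mice. The moderated F test for any difference among the groups also called none of them, against 0.0933% of all probe sets. At an unadjusted p under 0.05, limma called 1 of the 7 genes, Slc11a1, between TSA-treated and untreated non-diabetic mice, where 14.7% of all probe sets reached that level, and 0 of the 7 in the other comparisons (6.27% of all probe sets between diabetic and untreated non-diabetic mice and 4.27% between TSA-treated and diabetic mice). The methods' t-test called Slc11a1 in that comparison and Ptpn2 between diabetic and untreated non-diabetic mice at an unadjusted p under 0.05, and neither after adjustment. At that level it called 11.6% and 5.92% of all probe sets in these comparisons, and 3.02% between TSA-treated and diabetic mice, where it called 0 of the 7 genes. Among the representative probe sets the largest differences were those of Sh2b3 and Slc11a1, and that of Sh2b3 rested on 1 array.

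**Figure D1:**
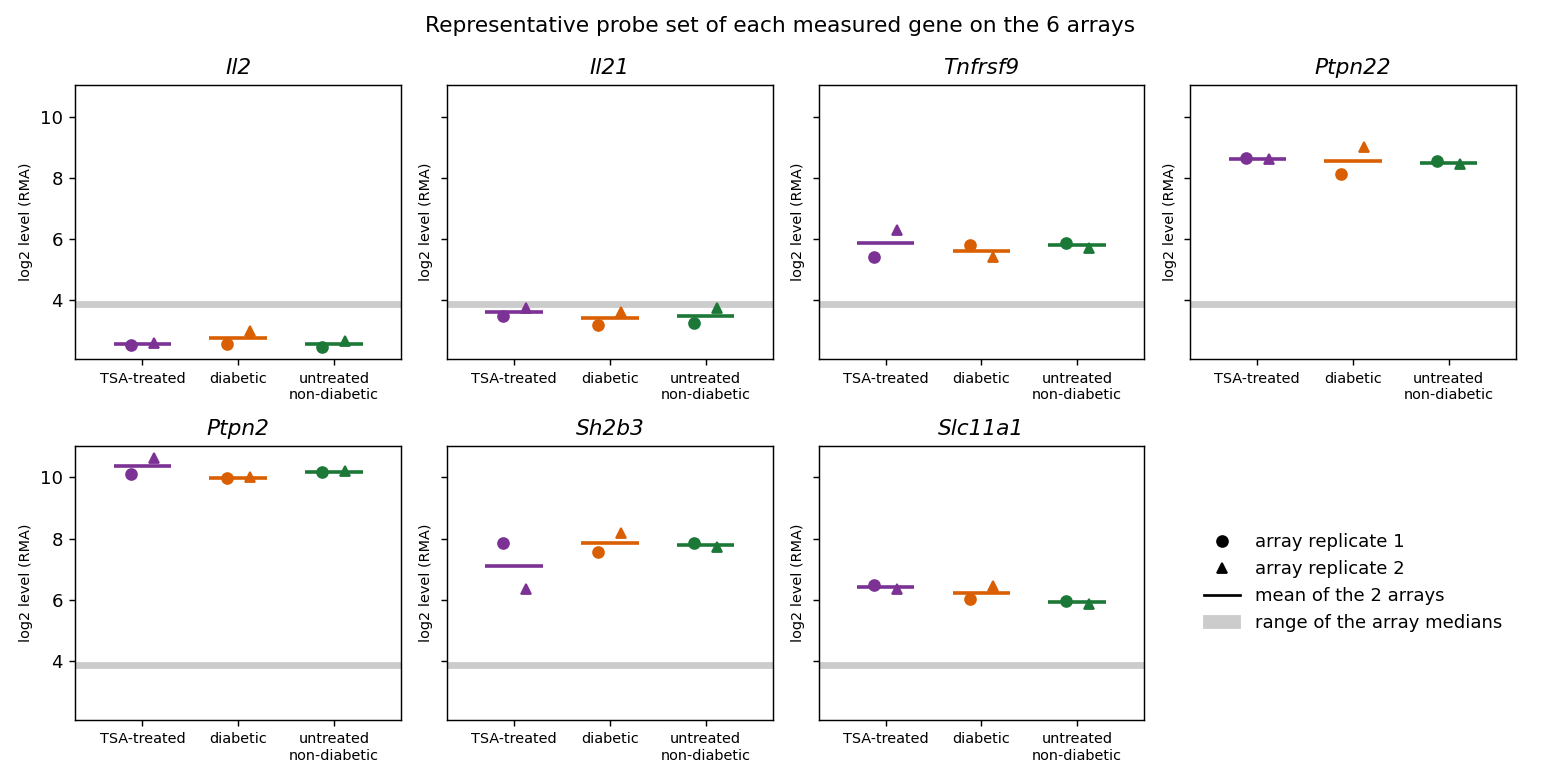
Log2 level (RMA, vertical axis) of the representative probe set of each measured gene in TSA-treated, diabetic and untreated non-diabetic mice. Circles are array replicate 1, triangles array replicate 2, lines the mean of the 2 arrays, and the grey band the range of the array medians, 3.79 to 3.95. Il2 and Il21 lie below the band on all 6 arrays, the other 5 genes above it, and TSA-treated replicate 2 stands apart for Sh2b3 at 6.35.

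The start regions of Il2, Il21 and Slc11a1 are shown because the genes Il2 and Il21 encode cytokines whose transcription is driven by the calcium-dependent factor NFAT in stimulated T cells, and Slc11a1 is the gene with the smallest p-value among the representative probe sets. They are RefSeq promoters of the mouse build GRCm38.p6, 250 bases before to 50 after the transcript start, read 5′ to 3′ along the gene. That of Il2 is chr3:37125905-37126204 on the minus strand, that of Il21 chr3:37232587-37232886 on the minus strand, and that of Slc11a1 chr1:74374953-74375252 on the plus strand. Capitals mark the NFAT core GGAAAA, or its reverse complement, in Il2 and Il21, and the PU.1 core GAGGAA in Slc11a1. PU.1 is a transcription factor of myeloid and B cells.
Il2 promoter: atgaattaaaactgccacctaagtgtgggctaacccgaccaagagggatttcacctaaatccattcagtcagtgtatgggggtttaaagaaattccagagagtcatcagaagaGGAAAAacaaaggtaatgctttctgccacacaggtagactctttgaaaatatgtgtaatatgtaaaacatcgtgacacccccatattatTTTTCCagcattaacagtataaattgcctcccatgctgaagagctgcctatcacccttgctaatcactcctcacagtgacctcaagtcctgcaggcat
Il21 promoter: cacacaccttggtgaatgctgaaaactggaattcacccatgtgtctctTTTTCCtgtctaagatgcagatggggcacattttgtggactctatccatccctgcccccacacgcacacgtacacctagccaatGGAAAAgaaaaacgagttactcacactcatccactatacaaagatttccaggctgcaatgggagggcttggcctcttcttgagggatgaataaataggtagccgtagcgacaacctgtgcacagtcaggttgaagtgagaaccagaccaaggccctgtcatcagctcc
Slc11a1 promoter: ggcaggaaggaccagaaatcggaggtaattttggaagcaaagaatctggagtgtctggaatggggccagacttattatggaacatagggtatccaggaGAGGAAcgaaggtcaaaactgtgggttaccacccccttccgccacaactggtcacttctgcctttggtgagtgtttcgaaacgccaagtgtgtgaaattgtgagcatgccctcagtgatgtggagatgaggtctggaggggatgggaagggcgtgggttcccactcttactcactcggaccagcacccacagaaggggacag

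Promoters were found for 7 of the 8 genes, Cd101 among them, and 9 promoters were searched on both strands. The Il2 promoter held GGAAAA at -137 and, on the opposite strand, at -48 from the transcript start, and that of Il21 held it at -202 on the opposite strand and at -118. Of the 32851 promoters of this length, 23.4% held GGAAAA. It was also found in one of the Tnfrsf9 promoters and in no promoter of the other genes searched. The PU.1 core, present in 28.3% of all promoters, was found at -152 in Slc11a1, and also in Il2, where it starts at -139 and overlaps a GGAAAA match, and in Cd101, Ptpn22 and Sh2b3. The AP-1 site TGANTCA, present in 7.81% of promoters, was found in the other Tnfrsf9 promoter alone. These matches are descriptions of the sequence and not measured sites.

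Il2, the growth and survival factor that T cells secrete on activation and that maintains regulatory T cells, was dim. Its own probe set, 1449990_at, had a log2 level of 2.54 and 2.60 in TSA-treated mice, 2.57 and 2.99 in diabetic mice, and 2.49 and 2.68 in untreated non-diabetic mice. All 6 values lay below the array median and the 3 groups overlapped, with diabetic replicate 2 the highest array. The difference in limma was -0.02 between TSA-treated and untreated non-diabetic mice (SE 0.20, 95% interval -0.51 to 0.48, adjusted p = 0.984). Diabetic mice were 0.19 above untreated non-diabetic mice (SE 0.20, interval -0.30 to 0.69, adjusted p = 0.997), and TSA-treated mice 0.21 below diabetic mice, a difference of -0.21 (interval -0.70 to 0.28, adjusted p = 0.910). At such a level, near the lower end of the array's range, a change in transcript is compressed. The brighter probe set 1447917_x_at, which names Ntan1, an amidase of protein degradation, together with Il2, read 9.41 and 9.81 in TSA-treated, 9.62 and 9.58 in diabetic, and 9.48 and 9.50 in untreated non-diabetic mice, and its level cannot be assigned to either gene.

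The receptor and signalling genes of interleukin-2 gave no called gene either. Of 12 listed genes 11 were measured, without Il2rg, and 0 passed limma's test in each comparison. At an unadjusted p under 0.05 limma called 0 in each. The methods' t-test called 1 between TSA-treated and untreated non-diabetic mice, where it called 11.6% of all probe sets. The median difference was -0.10 between TSA-treated and untreated non-diabetic mice, where the median of all probe sets was 0.05, -0.05 between diabetic and untreated non-diabetic mice (all probe sets 0.01) and -0.13 between TSA-treated and diabetic mice (all probe sets 0.02). Il2rb, the signalling chain of the receptor, read 5.80 and 4.81 in TSA-treated, 6.16 and 5.89 in diabetic, and 6.02 and 5.79 in untreated non-diabetic mice, so that TSA-treated replicate 2 was its lowest array. The difference was -0.60 from untreated non-diabetic mice (SE 0.34, adjusted p = 0.483 by limma). Jak3, the kinase bound to the shared receptor chain, lay lower in both TSA-treated arrays than in either untreated non-diabetic array (difference -0.35, SE 0.20, adjusted p = 0.505). Foxp3, the master factor of regulatory T cells, lay below the array median on all arrays. Genes of this and several lists below were called once TSA-treated replicate 1 was left out. That group was then TSA-treated replicate 2 alone, the array with the largest beta-actin gap, 5.61. The share of all probe sets called between TSA-treated and untreated non-diabetic mice rose in that fit too. Counts of list genes called with 1 array left out are therefore not given.

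Il21, a cytokine of follicular helper and Th17 cells, was likewise dim but its probe sets did not behave alike. The representative probe set 1450334_at had a log2 level of 3.49 and 3.75 in TSA-treated mice, 3.20 and 3.63 in diabetic mice, and 3.25 and 3.74 in untreated non-diabetic mice. The groups overlapped and replicate 2 was the higher array in each. TSA-treated minus untreated non-diabetic was 0.13 (SE 0.25, interval -0.49 to 0.74, adjusted p = 0.865), diabetic minus untreated non-diabetic -0.08 (SE 0.25, adjusted p = 1), and TSA-treated minus diabetic 0.20 (SE 0.25, adjusted p = 0.926), all by limma. The dimmer probe set 1447288_at read 2.88 and 2.85 in TSA-treated mice, 2.56 and 2.50 in diabetic mice, and 2.29 and 2.35 in untreated non-diabetic mice. Here the 3 groups did not overlap, with TSA-treated arrays highest and untreated non-diabetic arrays lowest, an order that 3.35% of all probe sets showed. TSA-treated mice were 0.54 above untreated non-diabetic mice (SE 0.15, interval 0.18 to 0.91, adjusted p = 0.210), which did not pass the test. The other differences of this probe set were 0.21 for diabetic minus untreated non-diabetic mice (adjusted p = 0.918) and 0.33 for TSA-treated minus diabetic mice (adjusted p = 0.902). Both probe sets lay below the median on all 6 arrays. The dimmer one, 1447288_at, lay between percentiles 1.42 and 24.1 of the arrays, near the lower end of their range as Il2 did.

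Of 8 genes listed for the Il21 pathway 6 were measured, and 0 passed limma's test in each comparison. At an unadjusted p under 0.05 limma called 1 between TSA-treated and untreated non-diabetic mice (14.7% of all probe sets) and 0 in the other comparisons. The median difference of the 6 genes was -0.41 between TSA-treated and untreated non-diabetic mice. It was -0.01 between diabetic and untreated non-diabetic mice and -0.43 between TSA-treated and diabetic mice. Stat3, the transcription factor that interleukin-21 activates, read 8.14 and 7.46 in TSA-treated mice, 8.33 and 8.25 in diabetic mice, and 8.86 and 8.66 in untreated non-diabetic mice. Its groups followed this order without overlap, and TSA-treated minus untreated non-diabetic was -0.97 (SE 0.26, adjusted p = 0.200 by limma). Il21r, the receptor, was also lower in both TSA-treated and both diabetic arrays than in either untreated non-diabetic array, with differences of -0.48 (adjusted p = 0.368) and -0.33 (adjusted p = 0.893).

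Tnfrsf9, the 4-1BB receptor that costimulates activated T cells, varied most within the TSA-treated group. Its probe set 1460469_at had a log2 level of 5.42 and 6.31 in TSA-treated mice, 5.82 and 5.43 in diabetic mice, and 5.88 and 5.72 in untreated non-diabetic mice. The TSA-treated duplicates thus enclosed all other arrays. TSA-treated minus untreated non-diabetic was 0.07 (SE 0.32, interval -0.72 to 0.86, adjusted p = 0.954), diabetic minus untreated non-diabetic -0.17 (SE 0.32, adjusted p = 1) and TSA-treated minus diabetic 0.24 (SE 0.32, adjusted p = 0.931) in limma. Leaving out 1 array decided the sign: TSA-treated minus untreated non-diabetic was -0.38 without TSA-treated replicate 2 and 0.51 without TSA-treated replicate 1. The dimmer probe sets, 1421481_at and 1428034_a_at, lay below the array median throughout, at 2.59 to 3.14, and their differences ranged within -0.14 and 0.13. One of them, 1421481_at, was lower in both diabetic arrays (2.87 and 2.65) than in either untreated non-diabetic array (2.90 and 2.90).

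The ligand and signalling genes of Tnfrsf9 held the gene with the widest gap among the partner genes named here. Of 9 listed genes 8 were measured, without Nfkb1, 0 were called by limma in each comparison, and the median difference was -0.39 between TSA-treated and untreated non-diabetic mice, -0.10 between diabetic and untreated non-diabetic mice and -0.22 between TSA-treated and diabetic mice. Lrr1, a leucine-rich repeat protein described to bind the tail of 4-1BB, read 7.72 and 7.82 in TSA-treated mice, 6.56 and 7.04 in diabetic mice, and 5.56 and 4.86 in untreated non-diabetic mice. All 3 groups were apart in that order. The difference was 2.56 between TSA-treated and untreated non-diabetic mice (SE 0.29, adjusted p = 0.0817), 1.59 between diabetic and untreated non-diabetic mice (adjusted p = 0.595) and 0.97 between TSA-treated and diabetic mice (adjusted p = 0.902), none of them called by limma. Traf1, an adaptor recruited by the receptor, read 6.34 and 6.40 in TSA-treated, 7.89 and 5.40 in diabetic, and 8.29 and 8.73 in untreated non-diabetic mice, a TSA-treated minus untreated non-diabetic difference of -2.14 (SE 0.75, adjusted p = 0.279). The ligand itself, Tnfsf9, lay below the median on all arrays. At an unadjusted p under 0.05 limma called 2 genes of the list between TSA-treated and untreated non-diabetic mice (14.7% of all probe sets). The methods' t-test called 2 as well (11.6% of all probe sets). The local pooled error test with adjustment called 2, and its share over all probe sets was not computed.

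Ptpn22, the lymphoid tyrosine phosphatase that dampens signalling through the T cell receptor, was well above the array medians. Its only probe set, 1417995_at, had a log2 level of 8.64 and 8.61 in TSA-treated mice, 8.12 and 8.99 in diabetic mice, and 8.54 and 8.45 in untreated non-diabetic mice. The TSA-treated arrays were both just above the untreated non-diabetic ones, and the diabetic duplicates held the lowest and the highest array. The difference was 0.13 between TSA-treated and untreated non-diabetic mice (SE 0.29, interval -0.59 to 0.85, adjusted p = 0.882), 0.07 between diabetic and untreated non-diabetic mice (interval -0.65 to 0.79, adjusted p = 1) and 0.06 between TSA-treated and diabetic mice (interval -0.66 to 0.79, adjusted p = 0.978) in limma. Between diabetic and untreated non-diabetic mice it was 0.50 without diabetic replicate 1 and -0.37 without diabetic replicate 2, so that 1 array set the sign.

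The partners and substrates of Ptpn22 mostly had lower means in TSA-treated than in untreated non-diabetic mice, unlike Ptpn22 itself. Of 12 listed genes 10 were measured, without Lck and Traf3. Limma called none. At an unadjusted p under 0.05 it called 5 between TSA-treated and untreated non-diabetic mice (14.7% of all probe sets). The methods' t-test called 1 at that level (11.6% of all probe sets), and the local pooled error test with adjustment 1. Here 9 of the 10 lay lower in both TSA-treated arrays than in either untreated non-diabetic array, where 21.5% of all probe sets did so. The median difference was -0.76 in that comparison, -0.25 between diabetic and untreated non-diabetic mice and -0.58 between TSA-treated and diabetic mice. Csk, the kinase that acts with Ptpn22 to hold Src kinases inactive, read 6.71 and 5.60 in TSA-treated mice, 8.21 and 7.43 in diabetic mice, and 8.28 and 8.24 in untreated non-diabetic mice. TSA-treated minus untreated non-diabetic was -2.10 (SE 0.42, adjusted p = 0.140) and TSA-treated minus diabetic -1.66 (adjusted p = 0.902), with TSA-treated replicate 2 the lowest array. Pstpip1, a cytoskeletal adaptor that binds phosphatases of this family, was also lowest in TSA-treated replicate 2, at 5.40 and 4.26 in TSA-treated, 6.08 and 5.95 in diabetic, and 6.22 and 6.29 in untreated non-diabetic mice (TSA-treated minus untreated non-diabetic -1.43, SE 0.36, adjusted p = 0.192). Beside these values, the summed linear level of 14 T cell markers was 2324 and 1756 in TSA-treated, 2462 and 2847 in diabetic, and 3261 and 3198 in untreated non-diabetic mice, and that of 10 B cell markers 6031 and 2826, 8793 and 8874, and 9897 and 9812 in the same order. Limma called 0 of these markers. At an unadjusted p under 0.05 it called 9 and 10 between TSA-treated and untreated non-diabetic mice, and the methods' t-test 2 and 0. The shares of all probe sets were 14.7% by limma and 11.6% by that t-test. The local pooled error test with adjustment called 0 and 3. In that comparison 12 of 14 and 10 of 10 lay lower in both TSA-treated arrays than in either untreated non-diabetic array. Their median differences there were -0.75 and -1.25. Cd3e and Cd247 are in both the partner list and the T cell markers. The beta-actin gap was 3.45 and 5.61 in TSA-treated against 2.35 and 2.05 in untreated non-diabetic mice. The part of the markers and of this gap in the values of the partner genes, and of the gap in those of the markers, was not tested.

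**Figure D2:**
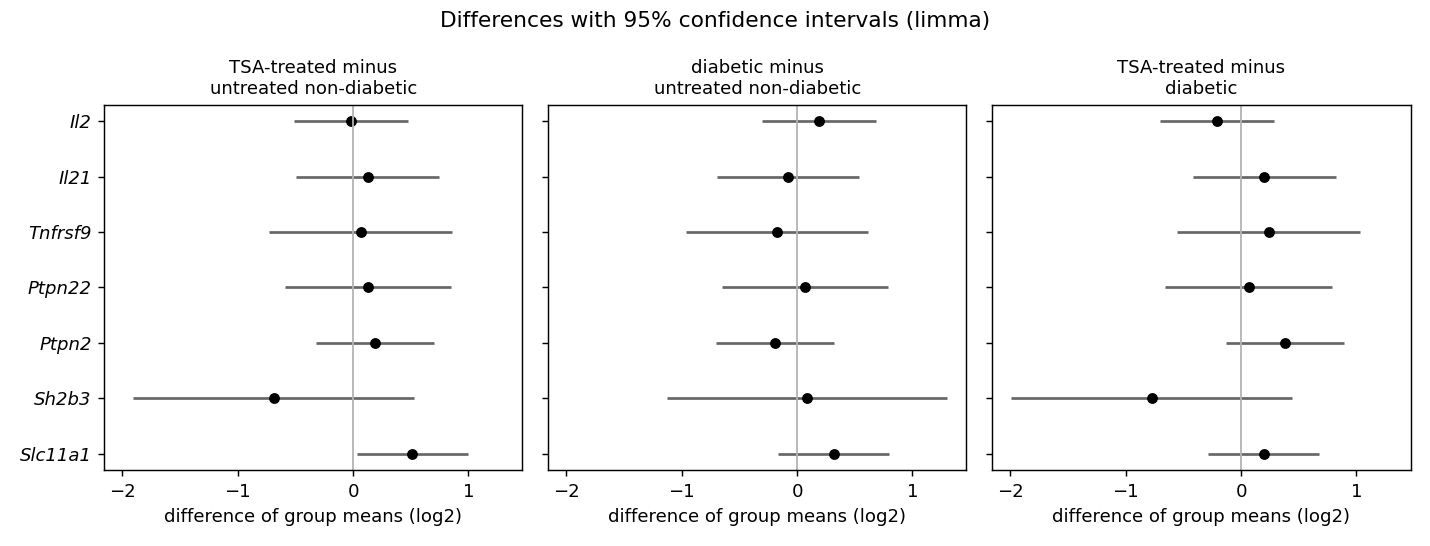
Difference of group means on the log2 scale (horizontal axis) for the representative probe set of each gene (rows), in 3 panels for TSA-treated minus untreated non-diabetic, diabetic minus untreated non-diabetic and TSA-treated minus diabetic mice. Points are limma estimates and bars 95% confidence intervals; the interval of Slc11a1 in the first panel, 0.03 to 1.00, is the only one that leaves out 0, and those of Sh2b3 are the widest.

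Ptpn2, the T cell protein tyrosine phosphatase that removes phosphate from Jak and Stat proteins after cytokine signals, was bright on 2 of its 4 probe sets. The representative probe set 1438562_a_at had a log2 level of 10.12 and 10.62 in TSA-treated mice, 9.97 and 10.01 in diabetic mice, and 10.17 and 10.20 in untreated non-diabetic mice. Both diabetic arrays were below all others, and TSA-treated replicate 2 was the highest. TSA-treated minus untreated non-diabetic was 0.19 (SE 0.21, interval -0.32 to 0.70, adjusted p = 0.738), diabetic minus untreated non-diabetic -0.19 (SE 0.21, interval -0.70 to 0.32, adjusted p = 0.999) and TSA-treated minus diabetic 0.38 (SE 0.21, interval -0.13 to 0.89, adjusted p = 0.902) in limma. The other bright probe set, 1417140_a_at, read 8.93 and 9.58 in TSA-treated mice, 8.55 and 9.14 in diabetic mice, and 8.62 and 8.66 in untreated non-diabetic mice. Both TSA-treated arrays were above both untreated non-diabetic arrays here, by 0.62 in the mean (SE 0.29, adjusted p = 0.409). Diabetic minus untreated non-diabetic was 0.21 on this probe set, of the opposite sign to the representative one. The dim probe sets 1425197_at and 1425198_at shared this opposite sign, at 0.31 and 0.32 (adjusted p = 0.888 and 0.883 by limma). On both, the diabetic arrays lay above the untreated non-diabetic ones without overlap, where 21.6% of all probe sets did so. Of the dim probe sets, 1425198_at read 2.95 and 3.28 in TSA-treated, 2.79 and 3.09 in diabetic, and 2.59 and 2.65 in untreated non-diabetic mice (TSA-treated minus untreated non-diabetic 0.49, SE 0.20, adjusted p = 0.331), and 1425197_at had a difference of 0.24 (SE 0.19, adjusted p = 0.630). All 4 probe sets thus had a positive difference between TSA-treated and untreated non-diabetic mice, none called. The dim ones lay below the array median on all arrays, and without TSA-treated replicate 2 the difference of the representative probe set was -0.064.

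Of 10 genes listed as Ptpn2 substrates and relatives 8 were measured. Limma called none. At an unadjusted p under 0.05 it called 4 between TSA-treated and untreated non-diabetic mice (14.7% of all probe sets), and the methods' t-test 0 (11.6%). The median difference was -0.90 between TSA-treated and untreated non-diabetic mice, -0.19 between diabetic and untreated non-diabetic mice and -0.44 between TSA-treated and diabetic mice. Ptpn1, the closest relative of Ptpn2, read 8.25 and 7.49 in TSA-treated, 8.49 and 7.87 in diabetic, and 9.25 and 9.10 in untreated non-diabetic mice. Both other groups were below untreated non-diabetic mice in every array, by -1.30 in TSA-treated (SE 0.32, adjusted p = 0.182) and -0.996 in diabetic mice (adjusted p = 0.766). Fyn, a Src kinase of T cells, had a TSA-treated minus untreated non-diabetic difference of -1.65 (SE 0.41, adjusted p = 0.182), with 7.58 and 6.62 in TSA-treated, 8.38 and 7.49 in diabetic, and 8.74 and 8.76 in untreated non-diabetic mice. Jak1 and Jak3 of this list are also in the Il2 and Il21 lists, Stat3 in the Il21 list, and Stat5a and Stat5b in the Il2 list. Fyn is also in the Ptpn22 list, so the values of these lists are partly the same. The T cell markers given above had a median difference of -0.75 between TSA-treated and untreated non-diabetic mice. In both TSA-treated arrays 12 of 14 were lower than in either untreated non-diabetic array, where 21.5% of all probe sets were. The beta-actin gaps were 3.45 and 5.61 in TSA-treated against 2.35 and 2.05 in untreated non-diabetic mice. Both stand beside the lower values of the Ptpn2, Il21 and Tnfrsf9 lists, and their part in them was not tested.

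**Figure D3:**
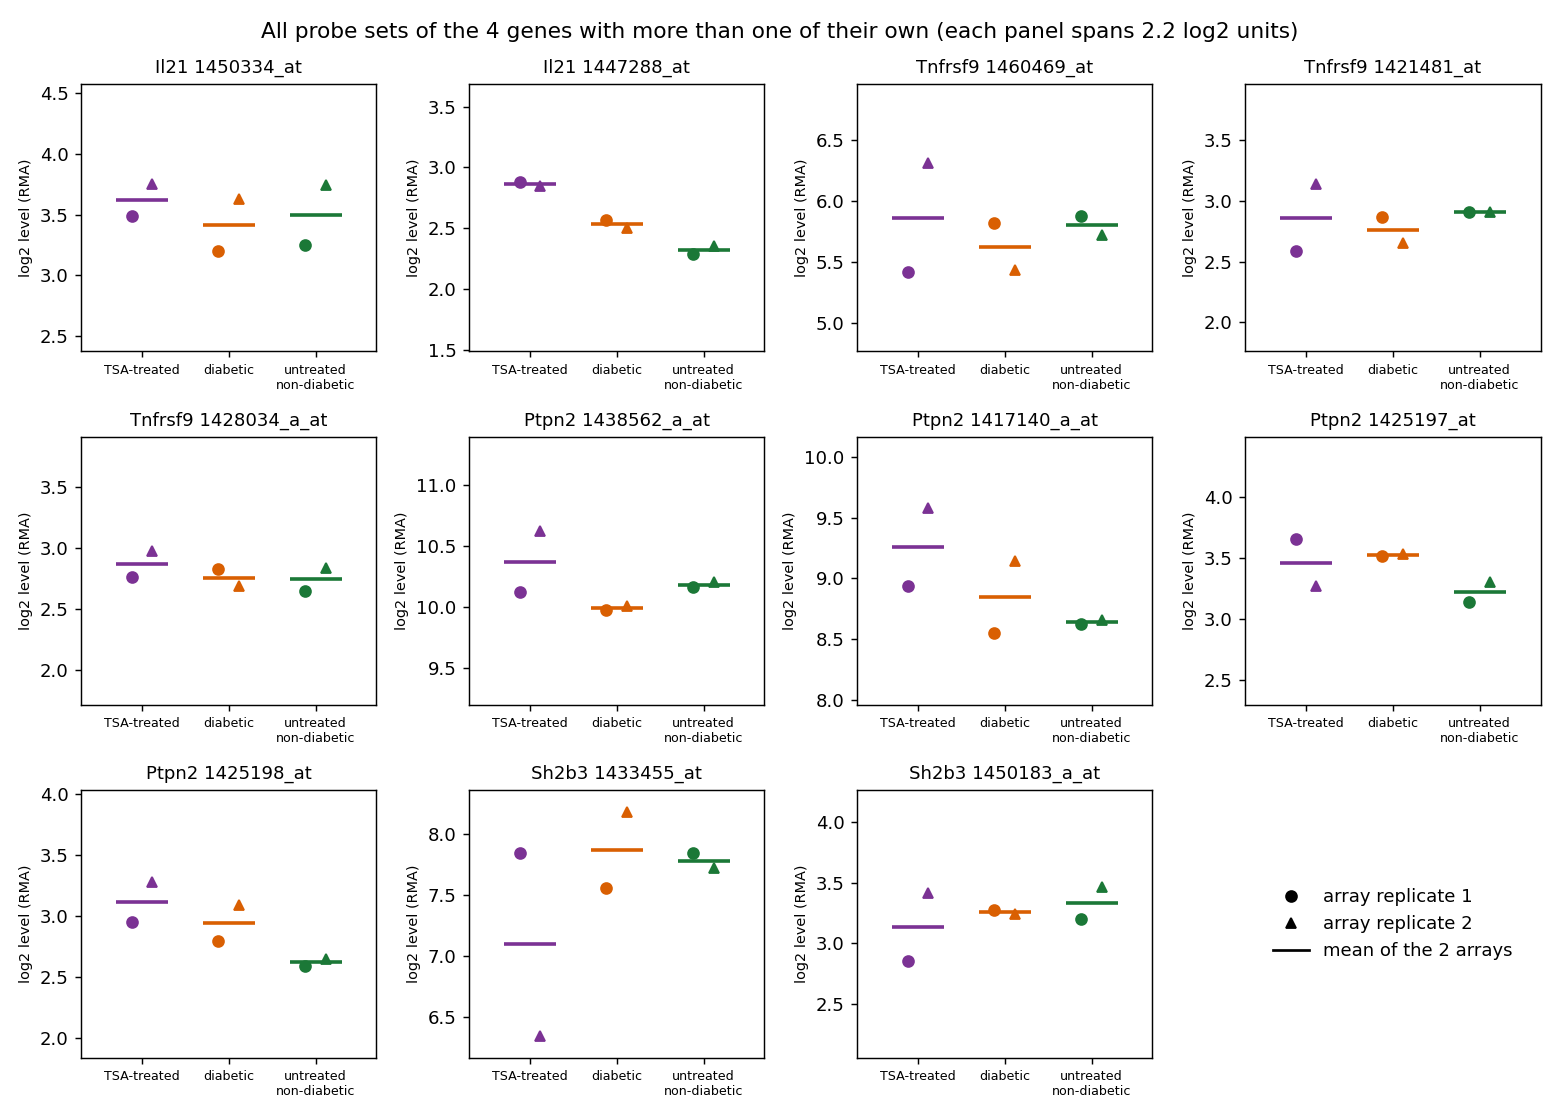
Log2 level (RMA, vertical axis) on each array for every probe set of Il21, Tnfrsf9, Ptpn2 and Sh2b3, the 4 genes with more than one probe set of their own, in TSA-treated, diabetic and untreated non-diabetic mice. Circles are replicate 1, triangles replicate 2, lines group means, and all panels span the same range of log2 units; Il21 1447288_at is the panel in which the 3 groups are apart, at 2.88 and 2.85, 2.56 and 2.50, and 2.29 and 2.35.

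Sh2b3, also called Lnk, an adaptor that restrains cytokine receptor and Jak2 signalling in blood progenitors and lymphocytes, had the widest range of group means, which rested on 1 array. Its representative probe set 1433455_at had a log2 level of 7.85 and 6.35 in TSA-treated mice, 7.56 and 8.18 in diabetic mice, and 7.84 and 7.72 in untreated non-diabetic mice. TSA-treated replicate 2 was 1.50 below its duplicate and below every other array, and TSA-treated replicate 1 lay among the rest. TSA-treated minus untreated non-diabetic was -0.69 (SE 0.50, interval -1.90 to 0.53, adjusted p = 0.588), TSA-treated minus diabetic -0.77 (SE 0.50, interval -1.99 to 0.44, adjusted p = 0.902) and diabetic minus untreated non-diabetic 0.09 (SE 0.50, adjusted p = 1) in limma. Without TSA-treated replicate 2 the first of these was 0.06 and the second -0.02, and without TSA-treated replicate 1 they were -1.44 (adjusted p = 0.0690) and -1.53 (adjusted p = 0.0794). TSA-treated replicate 2 is also the array with the largest 3′ to 5′ gap of beta-actin, 5.61, and the part of that gap in this value was not tested. The dim probe set 1450183_a_at, below the median on all arrays, was likewise not called, with a TSA-treated minus untreated non-diabetic difference of -0.20 (SE 0.23, adjusted p = 0.748), and there the lower TSA-treated array was replicate 1, at 2.86 against 3.41.

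The Sh2b family and the receptors and kinases that Sh2b3 binds were measured for 8 of 10 genes. Limma called none. At an unadjusted p under 0.05 it called 2 between TSA-treated and untreated non-diabetic mice (14.7% of all probe sets), and the methods' t-test 1 (11.6%). The median difference was 0.18 between TSA-treated and untreated non-diabetic mice, 0.17 between diabetic and untreated non-diabetic mice and 0.07 between TSA-treated and diabetic mice. Sh2b1, an adaptor of the same family that promotes Jak2 activity, was at 6.73 and 6.40 in TSA-treated, 6.99 and 6.86 in diabetic, and 7.32 and 7.22 in untreated non-diabetic mice, apart in that order (TSA-treated minus untreated non-diabetic -0.71, SE 0.18, adjusted p = 0.196). Jak2 was higher in both TSA-treated arrays, 9.51 and 9.78, and both diabetic arrays, 9.33 and 9.65, than in the untreated non-diabetic ones, 9.17 and 9.12. Its differences from untreated non-diabetic mice were 0.50 (SE 0.19, adjusted p = 0.318) and 0.34 (adjusted p = 0.865). Erythroid markers, of which the spleen's red pulp is a source, had a median difference of 0.55 in TSA-treated and 0.34 in diabetic mice from untreated non-diabetic mice and 0.13 between TSA-treated and diabetic mice, with 0 of 12 called by limma. At an unadjusted p under 0.05 limma called 7, 3 and 2 in these comparisons (14.7%, 6.27% and 4.27% of all probe sets). The methods' t-test called 3, 6 and 1 at that level (11.6%, 5.92% and 3.02% of all probe sets). The local pooled error test with adjustment called 2, 0 and 0.

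Slc11a1, the divalent metal transporter of the phagosome membrane in macrophages and neutrophils, had the smallest p-value among the representative probe sets. Il21 1447288_at, near the lower end of the array's range, was nearer to a call. The only probe set of Slc11a1, 1420361_at, had a log2 level of 6.50 and 6.37 in TSA-treated mice, 6.03 and 6.45 in diabetic mice, and 5.96 and 5.88 in untreated non-diabetic mice. Every TSA-treated and diabetic array was above both untreated non-diabetic arrays, and the TSA-treated and diabetic arrays overlapped. The highest arrays, both TSA-treated ones and diabetic replicate 2, also had the largest beta-actin gaps, 3.45, 5.61 and 3.32. The gap was 2.42 in diabetic replicate 1, and 2.35 and 2.05 in untreated non-diabetic mice. The part of the gap in the level of Slc11a1 was not tested. TSA-treated mice were 0.51 above untreated non-diabetic mice in limma (SE 0.20, interval 0.03 to 1.00), a fold of 1.43 with an interval of 1.02 to 1.995. The unadjusted p was 0.0399 and the adjusted p 0.313. Diabetic minus untreated non-diabetic was 0.32 (SE 0.20, interval -0.16 to 0.80, adjusted p = 0.883) and TSA-treated minus diabetic 0.20 (SE 0.20, interval -0.29 to 0.68, adjusted p = 0.914). The TSA-treated minus untreated non-diabetic difference stayed between 0.45 and 0.58 when each array was left out in turn, without a call. Diabetic minus untreated non-diabetic was 0.53 without diabetic replicate 1 and 0.11 without diabetic replicate 2.

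Markers of the cells that carry Slc11a1 did not all run with it. The summed linear level of 16 macrophage and monocyte markers was 12840 and 8546 in TSA-treated, 13410 and 15560 in diabetic, and 11190 and 10910 in untreated non-diabetic mice, and 1 of them, Itgam, lay below the median on all arrays. That of 12 neutrophil markers was 27100 and 25080 in TSA-treated, 34710 and 35310 in diabetic, and 21530 and 23260 in untreated non-diabetic mice. S100a8 and S100a9, the brightest of them on every array, weigh most in this sum. Their TSA-treated minus untreated non-diabetic differences were 0.46 and 0.53, but only 4 of the 12 markers had a positive difference there. Between diabetic and untreated non-diabetic mice 11 did. Limma called none of these markers. For the 12 neutrophil markers it reached an unadjusted p under 0.05 for 4 in TSA-treated and 4 in diabetic mice against untreated non-diabetic mice and for 6 in TSA-treated against diabetic mice. The methods' t-test reached it for 2, 7 and 1, and the local pooled error test with adjustment called 1, 1 and 0. For the 16 macrophage markers the counts were 3, 1 and 2 by limma and 1, 0 and 0 by the methods' t-test. The local pooled error test with adjustment called 1, 1 and 1 of them. Over all probe sets 14.7%, 6.27% and 4.27% reached an unadjusted p under 0.05 by limma, and 11.6%, 5.92% and 3.02% by the methods' t-test. The median differences from untreated non-diabetic mice were 0.20 and 0.15 for the macrophage list and -0.24 and 0.54 for the neutrophil list, in TSA-treated and in diabetic mice. Between TSA-treated and diabetic mice they were 0.06 and -0.60. Their part in the level of Slc11a1 was not tested.

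Of 10 genes listed for iron handling next to Slc11a1 8 were measured, without Ftl1 and Trf, and 0 were called by limma. At an unadjusted p under 0.05 limma called 1 in TSA-treated and 1 in diabetic mice against untreated non-diabetic mice (14.7% and 6.27% of all probe sets). The methods' t-test called 1 and 2 at that level (11.6% and 5.92% of all probe sets), and the local pooled error test with adjustment 0 and 1. The median difference was 0.33 between TSA-treated and untreated non-diabetic mice, 0.16 between diabetic and untreated non-diabetic mice and -0.07 between TSA-treated and diabetic mice. Slc40a1, the iron exporter ferroportin, read 11.37 and 11.58 in TSA-treated, 11.34 and 11.52 in diabetic, and 11.02 and 10.96 in untreated non-diabetic mice. Both groups lay above untreated non-diabetic mice without overlap, by 0.49 (SE 0.17, adjusted p = 0.270) and 0.44 (adjusted p = 0.794). Tfrc, the transferrin receptor of erythroid and dividing cells, read 12.37 and 11.15 in TSA-treated, 11.80 and 12.09 in diabetic, and 10.91 and 11.07 in untreated non-diabetic mice, with differences of 0.78 (SE 0.40, adjusted p = 0.442) and 0.96 (adjusted p = 0.797).

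Read over the 7 genes, the arrays of TSA-treated and untreated non-diabetic mice did not overlap for 2, Ptpn22 and Slc11a1, both higher in TSA-treated mice, while 47.8% of all probe sets did not overlap in this comparison and 26.3% were higher in this way. Between diabetic and untreated non-diabetic mice 2 did not overlap, against 41% of all probe sets, of which 21.6 percentage points were higher and 19.4 lower. Slc11a1 was higher in diabetic mice and Ptpn2 lower, the latter against the sign of its other probe sets. Between TSA-treated and diabetic mice 1 gene did not overlap, Ptpn2, higher in TSA-treated mice, against 27.5%, with 16.2% higher. The median difference of the 7 genes was 0.13, 0.07 and 0.20 in these comparisons, in which the median of all probe sets was 0.05, 0.01 and 0.02. Over the 14 probe sets that name 1 gene, 0 were called and 3 reached an unadjusted p under 0.05 between TSA-treated and untreated non-diabetic mice, where 14.7% of all probe sets did: Slc11a1, Il21 1447288_at and Ptpn2 1425198_at. The comparisons share arrays and are not independent of each other.

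A wider list of candidate genes of NOD loci, 28 of 30 measured without Lck and Cd58, also gave 0 calls by limma in each comparison. At an unadjusted p under 0.05 limma called 3, 0 and 2 of the 28 between TSA-treated and untreated non-diabetic, diabetic and untreated non-diabetic, and TSA-treated and diabetic mice. Over all probe sets the shares were 14.7%, 6.27% and 4.27%. The methods' t-test called 5, 1 and 0 there without adjustment, against 11.6%, 5.92% and 3.02% of all probe sets, and 0 after it. The median difference was 0.09 between TSA-treated and untreated non-diabetic mice, 0.09 between diabetic and untreated non-diabetic mice and -0.06 between TSA-treated and diabetic mice. Nfkbid, an inhibitor-like regulator of NF-kappa B, read 5.28 and 5.44 in TSA-treated, 6.16 and 5.69 in diabetic, and 6.46 and 6.34 in untreated non-diabetic mice, apart in that order, with a TSA-treated minus untreated non-diabetic difference of -1.04 (SE 0.21, adjusted p = 0.141). Cd2, an adhesion receptor of T and NK cells, read 7.03 and 5.45 in TSA-treated, 7.40 and 7.78 in diabetic, and 7.59 and 7.94 in untreated non-diabetic mice (difference -1.52, SE 0.51, adjusted p = 0.258), and TSA-treated replicate 2 was its lowest array. Markers of other cells that could hold these genes gave 0 calls by limma too. In the same comparisons the methods' t-test without adjustment called 1, 0 and 0 dendritic cell, 0, 1 and 0 NK cell, and 2, 1 and 1 regulatory T cell markers. Limma at an unadjusted p under 0.05 called 2, 0 and 1 dendritic cell markers, 0, 1 and 2 NK cell markers, and 3, 0 and 1 regulatory T cell markers. The shares of all probe sets given above for each test stand beside these counts too. The local pooled error test with adjustment called 1 NK cell marker between diabetic and untreated non-diabetic mice and 0 of the others. The median differences, in the order TSA-treated minus untreated non-diabetic, diabetic minus untreated non-diabetic and TSA-treated minus diabetic, were -0.10, 0.04 and -0.46 for 9 dendritic cell markers, 0.06, 0.48 and -0.35 for 8 NK cell markers, and -0.18, -0.15 and -0.01 for 8 regulatory T cell markers. Some genes of the wider list, such as Cd2, are also in a list of markers.

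**Figure D4:**
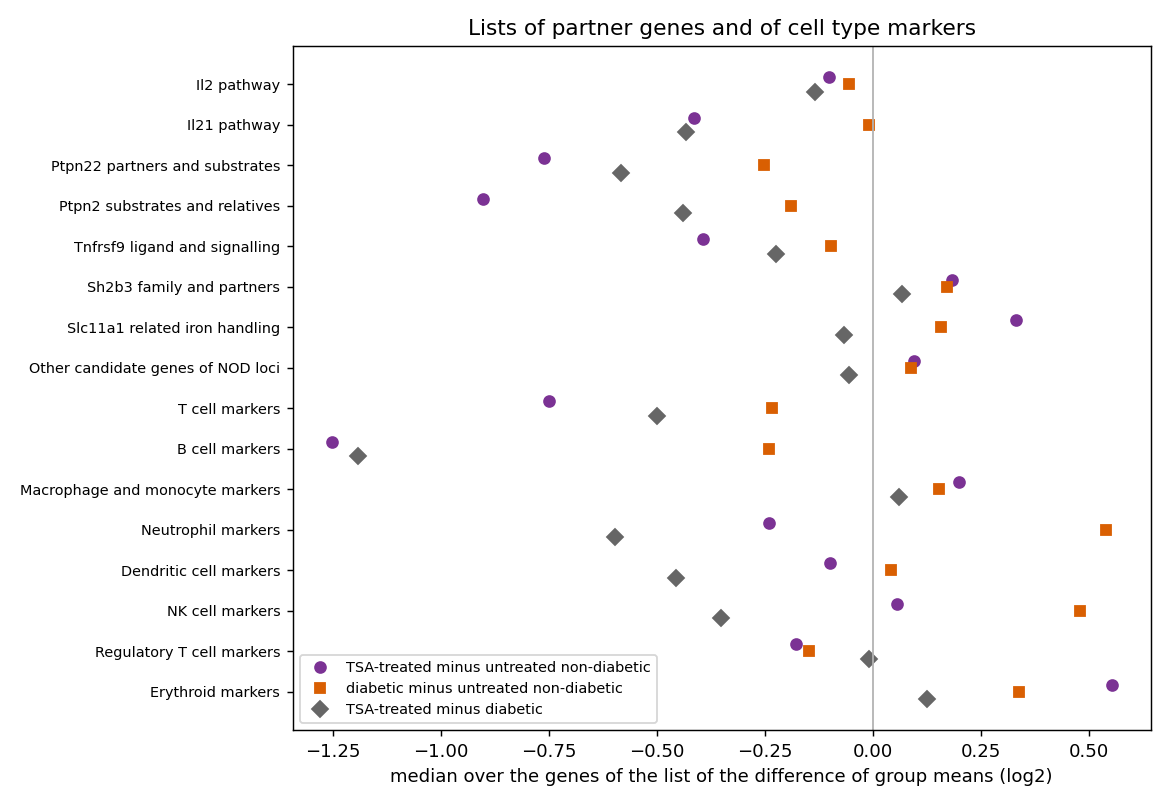
Median over the genes of each list (rows) of the difference of group means on the log2 scale (horizontal axis), for TSA-treated minus untreated non-diabetic (circles), diabetic minus untreated non-diabetic (squares) and TSA-treated minus diabetic mice (diamonds). The lists of Ptpn22 and Ptpn2 partners and of T and B cell markers lie farthest to the left as circles, at -0.76, -0.90, -0.75 and -1.25. Some genes are in more than 1 list, and the exocrine pancreas list is not drawn.

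For the 3 candidate genes with the widest range of group means, the genes with the most similar pattern were looked up by Pearson's r over the 6 arrays among 19234 probe sets. The range was 0.77 for Sh2b3, and Prelid1 (r = 0.999), Vipas39 (r = 0.998) and Gng12 (r = 0.998) were most like it, each lowest in TSA-treated replicate 2. Vipas39 read 6.46 and 4.84 in TSA-treated, 6.23 and 6.86 in diabetic, and 6.47 and 6.42 in untreated non-diabetic mice. The range was 0.51 for Slc11a1, with Kbtbd7 (r = 0.999), Cnot6 (r = 0.998) and Sec23a (r = 0.997). Kbtbd7 read 5.82 and 5.44 in TSA-treated, 4.47 and 5.75 in diabetic, and 4.29 and 4.04 in untreated non-diabetic mice. Diabetic replicate 2 thus stood with the TSA-treated arrays, as it did for Slc11a1. These arrays also had the largest beta-actin gaps, and the part of the gap was not tested. For Ptpn2, with a range of 0.38, the most similar genes were Tmed9 (r = 0.999), Rtraf (r = 0.995) and Tpbgl (r = 0.993). The arrays are pairs from 3 pools and these correlations were picked as the highest of many, so they are descriptions only.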

How the data were processed

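Splenocyte RNA of 3 groups of female NOD mice, 1 pool per group, was measured on 6 Affymetrix mouse arrays. The authors deposited log2 values, made by quantile normalization of the arrays to each other followed by RMA over the probes of a probe set. Array number and signal over background limit precision. The table holds 45101 probe sets, of which 64 controls were left out; 34945 of the 45037 tested name 1 gene in the platform annotation, 932 several and 9160 none. No column of other samples was present (0). One model over the 6 arrays was fitted with limma 3.58.1 under R 4.3.3 (3 residual and 2.94 prior degrees of freedom), with Benjamini-Hochberg adjustment over all probe sets and calls at an adjusted p under 0.05. An exact permutation test of 2 against 2 arrays cannot go below p = 0.333. Levels in summed lists are 2 to the power of the deposited value. The tests were tested on simulated data.

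A gene is represented by its probe set with the highest mean among those naming it alone. All 8 candidate genes were to be named, in each partner list the called genes or otherwise the 2 with the smallest p of the F test, and the 3 most similar genes of the 3 candidates with the widest range. Members, lists and tests were chosen with earlier results of these data known. Alternatives were the methods' t-test, one-way analysis of variance, the local pooled error test written anew from its published description, a replicate block, the compared groups alone, an intensity trend, robust variances, a threshold of 0.001, filters on low values (a linear level over 10 in at least 2 arrays, or a mean above the median), renormalization, averaging the probe sets of each gene, and leaving out each array.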

Additional observations from a re-analysis of the deposited data

How the results depend on the processing

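Nearly all settings left the count of called candidate genes at 0 in every comparison, including the local pooled error test, adjusted at 0.05 and at 0.001, and each array left out. The exception was the methods' t-test without adjustment at p under 0.05. It gave 1 between TSA-treated and untreated non-diabetic mice (Slc11a1, adjusted p = 0.375), against 11.6% of all probe sets. Between diabetic and untreated non-diabetic mice it gave 1 (Ptpn2, adjusted p = 0.814), against 5.92%. Neither passed limma's test. Of 432 recomputed differences of the 7 genes, 23 turned sign, 2 came to pass that unadjusted threshold and 407 kept sign and side. Signs turned for Ptpn22 in diabetic minus untreated non-diabetic mice with a further quantile normalization (-0.047), for Il2 in TSA-treated minus untreated non-diabetic mice with median centring (0.0075), and in diabetic minus untreated non-diabetic mice with the mean of all probe sets for Il21 (0.067) and Ptpn2 (0.16). The filters on low values left out Il2, and the stricter one also Il21.

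Leaving out each array in turn, where a lone array is assumed to vary like the other groups, turned signs as follows. TSA-treated minus untreated non-diabetic ranged between -0.11 and 0.076 for Il2, -0.12 and 0.37 for Il21, -0.38 and 0.51 for Tnfrsf9, -0.064 and 0.44 for Ptpn2, and -1.44 and 0.063 for Sh2b3. Diabetic minus untreated non-diabetic ranged between -0.022 and 0.41 for Il2, -0.32 and 0.17 for Il21, -0.37 and 0.021 for Tnfrsf9, -0.37 and 0.50 for Ptpn22, and -0.23 and 0.40 for Sh2b3. TSA-treated minus diabetic ranged between -0.42 and 0.005 for Il2, -0.011 and 0.42 for Il21, -0.21 and 0.68 for Tnfrsf9, -0.37 and 0.50 for Ptpn22, and -0.012 and 0.40 for Slc11a1. Over all probe sets, the share called between TSA-treated and untreated non-diabetic mice was 4.54% without TSA-treated replicate 1, 1.59% without either diabetic array and 0% without either untreated non-diabetic array.

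With the replicate block, 0 of the 7 genes were called in each comparison, and over all probe sets 30, 33 and 0 were called against 31, 40 and 12 without it, for TSA-treated with untreated non-diabetic, diabetic with untreated non-diabetic and TSA-treated with diabetic mice. Deviations of same-numbered arrays correlated at -0.11, -0.04 and -0.34 between TSA-treated and diabetic, TSA-treated and untreated non-diabetic, and diabetic and untreated non-diabetic mice, so the numbers did not pair the arrays. Crossing the numbers of the diabetic arrays, an alternative chosen after seeing the data, also gave 0 of the 7 genes, and 27, 41 and 0 probe sets.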
